A study of Rattus norvegicus with 8 samples.

Results

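The 9 genes of gluconeogenesis and amino acid breakdown described here, chosen by their RefSeq accession from the 36958 accessions on the array, were measured in rat small intestine, spleen and liver after oral lavender oil (LO). All 9 were found, on 13 probes and 22 features of the 41012 probes and 43379 non-control features. They were *Pck1* (NM_198780), *G6pc* (NM_013098), *Fbp1* (NM_012558), *Pc* (NM_012744), *Tat* (NM_012668), *Sds* (NM_053962), *Got1* (NM_012571), *Slc2a2* (NM_012879) and *Ppargc1a* (NM_031347). Male rats, 7 weeks old, 6 per group and 12 in all, received 5 mg/kg of LO in 10% ethanol, or 10% ethanol alone as the control, by mouth once daily for 13 days, and tissues were taken on day 14. The ethanol vehicle was thus shared by both groups. The sample labels give the strain as Wistar, whereas the protocol and the methods name Fischer (F334) rats. The intestine was taken about 20 cm from the duodenum. RNA was pooled within each group, so that a control pool and an LO pool of each tissue were hybridized together on 2 arrays with the Cy3 and Cy5 dyes exchanged, with LO in Cy5 on array 1 and in Cy3 on array 2. The liver had 2 such pairs of pools, Group1 and Group2, on 4 arrays. The sources do not say how these differ, or whether they hold different rats. Unless another fit is named, p-values here rest on the spread between the 2 liver pairs of pools. They do not measure the spread between rats or between the arrays of a pair.

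Gluconeogenesis makes glucose from lactate, glycerol and amino acids, mainly in the liver and the kidney cortex, and to a smaller extent in the small intestine. Pyruvate carboxylase (*Pc*) makes oxaloacetate in the mitochondrion, the cytosolic phosphoenolpyruvate carboxykinase (*Pck1*) turns oxaloacetate into phosphoenolpyruvate, fructose bisphosphatase (*Fbp1*) acts further along the path, and the catalytic subunit of glucose-6-phosphatase (*G6pc*, named *G6pc1* in RefSeq) frees glucose. Amino acids enter through enzymes such as tyrosine aminotransferase (*Tat*), serine dehydratase (*Sds*) and cytosolic aspartate aminotransferase (*Got1*). *Slc2a2* encodes a glucose transporter of hepatocytes, enterocytes and pancreatic beta cells, and *Ppargc1a* a coactivator that is induced in the fasted liver. Glucagon, acting through cAMP, and glucocorticoids raise several of these genes in the liver, and insulin lowers them.

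The bases upstream of 3 of the genes are shown, for an early and the last enzyme of the path and for the coactivator. A promoter entry of RefSeq (build GRCr8) was matched for 7 of the 9 genes, not for *Pc* and *Sds*, and the 250 bases before the start were searched on both strands for TGACGTCA, the full cAMP response element, for its core ACGTCA, which also lies within TGACGTCA, for TGTTCT, a glucocorticoid receptor monomer site, and for TATAAA, the TATA box. Capitals mark the matches, each sequence runs 5′ to 3′ on the plus strand, and the regions are chr3:182348322-182348571 for *Pck1*, chr10:86807409-86807658 for *G6pc* and chr14:63634058-63634307 for *Ppargc1a*.
Pck1: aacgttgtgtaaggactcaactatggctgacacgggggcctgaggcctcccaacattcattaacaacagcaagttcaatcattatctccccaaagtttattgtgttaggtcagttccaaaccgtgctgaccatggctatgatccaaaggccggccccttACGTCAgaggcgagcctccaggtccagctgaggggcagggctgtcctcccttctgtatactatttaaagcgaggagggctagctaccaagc
G6pc: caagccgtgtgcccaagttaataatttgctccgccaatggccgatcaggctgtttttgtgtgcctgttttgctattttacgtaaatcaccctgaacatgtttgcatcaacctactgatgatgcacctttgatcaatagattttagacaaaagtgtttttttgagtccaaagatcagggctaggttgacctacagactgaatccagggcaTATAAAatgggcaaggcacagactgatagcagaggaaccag
Ppargc1a: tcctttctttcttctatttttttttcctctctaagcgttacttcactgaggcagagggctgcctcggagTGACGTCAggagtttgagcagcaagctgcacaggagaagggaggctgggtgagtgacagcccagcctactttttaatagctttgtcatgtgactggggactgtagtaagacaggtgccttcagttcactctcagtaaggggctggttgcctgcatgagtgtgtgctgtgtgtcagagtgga
*Pck1* held the ACGTCA core from 91 to 86 bases before the start. *Ppargc1a* held the full TGACGTCA from 181 to 174 bases before the start, and *G6pc* held TATAAA from 41 to 36 bases before it. TGTTCT was found once, in *Slc2a2*, from 153 to 148 bases before the start. Over all 33469 promoter entries, windows of the same length held TGACGTCA in 1.59%, ACGTCA in 6.95%, TGTTCT in 17.5% and TATAAA in 12.9% of cases. These matches describe the letters of the windows and say nothing of binding in these tissues.

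Features well above background in both channels made up 44.3% to 64.7% of an array, and 0 were saturated. The tissue labels were checked against lists of marker genes in the control pools. All 14 hepatocyte markers were above background in the liver, all 7 enterocyte markers in the small intestine and all 6 lymphocyte markers in the spleen. The lists were not confined to these tissues. Above background were also 9 hepatocyte markers in small intestine and in spleen, 4 lymphocyte markers in small intestine and 4 enterocyte markers in each liver pool. The summed signal of each list was highest in its own tissue, for hepatocyte markers 1840000 and 1770000 in liver against 195000 in small intestine. The small intestine pools also held RNA with all 10 exocrine pancreas markers, with a summed signal of 1060000 in the control and 905000 in the LO pool, against 1040 and 990 in the spleen and 4010 to 5360 in the liver. All 6 endocrine pancreas markers were above background there as well. Each tissue was hybridized on a slide of its own, and the liver slide was scanned on another day than the others, so that slide and tissue cannot be told apart in the comparisons of levels. In bulk RNA, fewer cells of a type and less RNA per cell cannot be told apart.

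The first question was where these genes were expressed, in the control RNA. The levels below are log2 normalized signals, averaged over both dyes of a pool, and are compared only within a probe. Most of the genes were far higher in the liver than elsewhere, except *Sds*, *Got1*, *Slc2a2* and *Ppargc1a*, whose liver level was not far above that of every other tissue. Against the spleen, 11 of the 13 probes were higher in the liver at an adjusted p (limma, Benjamini-Hochberg) under 0.05, where 16.8% of the 27385 probes tested were called higher in the liver. Against the small intestine, 9 of 13 were higher in the liver, with a background of 12.8%, and 1 was higher in the intestine, where 16% of all probes were called higher. The small intestine exceeded the spleen for 10 of 13, with a background of 9.36%. Both liver counts include *Tat*, which entered the test through the liver alone. *Ppargc1a* entered it through the small intestine alone. It is the 1 probe higher there than in the liver, and is among the 10. The calls of these genes add no independent support to the counts. Small intestine and spleen had 1 control pool each and were assumed to vary like the 2 liver pools, so that their comparison sets 1 pool against 1 and has no replicate check of its own. The size of the folds moved with the processing. With normexp, loess and Aquantile 21 of the 39 member differences moved by more than 1.5-fold, by up to 4.22 on the log2 scale.

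**Figure D1:**
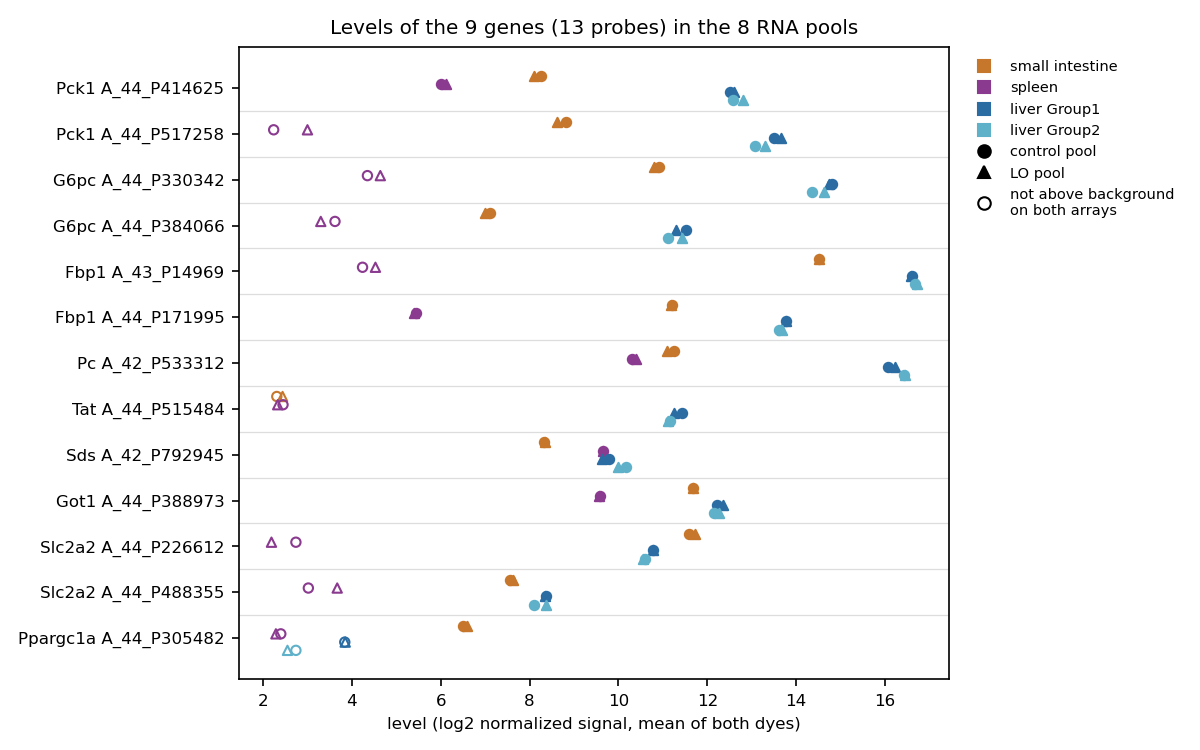
Level of each probe (log2 normalized signal, horizontal axis) in the 4 control pools (circles) and 4 LO pools (triangles), coloured by tissue and liver pair, with open symbols where a pool was not above background on both of its arrays. The liver pools lie to the right for *Pck1*, *G6pc*, *Fbp1*, *Pc* and *Tat*, and control and LO pools of a tissue lie close together.

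The enzymes of the gluconeogenic path shared a liver-high pattern. The repeated *Pck1* probe A_44_P414625, printed 10 times on each array, stood at 12.52 and 12.58 in the Group1 and Group2 control liver pools, against an intestinal level of 8.25 and a spleen level of 6.01. The liver was 19.7-fold above the small intestine (difference 4.30 ± 0.39 SE, adjusted p = 0.0018) and 93.4-fold above the spleen (6.55 ± 0.39, adjusted p = 0.000467). The small intestine was 4.75-fold above the spleen (adjusted p = 0.029), a call that was lost without array 1 (0.0901) and with dim probes kept in the test (0.0521). The other *Pck1* probe, A_44_P517258, gave 13.49 and 13.08 in the liver and an intestinal level of 8.83, a 21.8-fold difference, but it was not well above background on either spleen array, which made the liver at least 538-fold higher. The *Pck1* probes thus disagree on whether the spleen had a measurable signal. Such a bound sets the mean of the brighter tissue against the lowest signal well above background, or the dim probe's own signal where that was higher. *G6pc* probe A_44_P330342 stood at 14.81 and 14.35 in the liver pools and at 10.91 in the intestine. In the spleen it was at 4.35, where 1 of 2 control channels was above background. The liver exceeded the small intestine 12.7-fold (3.67 ± 0.43, adjusted p = 0.00389), and the second *G6pc* probe, A_44_P384066, gave an 18.6-fold difference (adjusted p = 0.00237).

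*Fbp1* had the smallest difference between liver and small intestine of the gluconeogenic enzymes. Probe A_43_P14969 gave 16.60 and 16.67 in the liver, an intestinal level of 14.51 and a spleen level of 4.24. The liver was 4.36-fold above the small intestine (2.12 ± 0.39, adjusted p = 0.0157), and the small intestine at least 1240-fold above the spleen, where neither control channel was above background. Probe A_44_P171995, which was above background in the spleen (5.44), gave 5.6-fold for liver against small intestine and 54.4-fold for small intestine against spleen. *Pc* followed the same order with a smaller gap between small intestine and spleen. It stood at 16.07 and 16.43 in the liver, with 11.24 in intestine and 10.31 in spleen. The liver was 32.4-fold above the small intestine (5.02 ± 0.41, adjusted p = 0.00131) and 61.6-fold above the spleen. The difference between small intestine and spleen was not called (0.93 ± 0.48, adjusted p = 0.252). That last difference passed the threshold when the 8 RNA pools were fitted together (adjusted p = 0.00717), in single channels with the dye as a block (0.0148) and with normexp and loess (0.0259). The fit of 8 pools takes control and LO pools of a tissue, which share arrays, as replicates, and the single-channel fit counts both dyes of a pool as samples. Calls gained in these 2 fits, for this and the following genes, thus rest on an n above that of the distinct control pools.

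The 3 enzymes of amino acid breakdown differed from one another. *Tat*, the glucocorticoid-induced step of tyrosine breakdown, was above background in the liver only, at 11.43 and 11.16, and at least 148-fold higher there than in the small intestine and at least 136-fold higher than in the spleen. Its signals in the other tissues were 2.90 to 6.47 on the linear scale, none well above background. It thus entered the test through the liver alone, and its calls as higher there add no independent support. *Sds*, which releases pyruvate and ammonia from serine, gave 9.79 and 10.17 in the liver, a spleen level of 9.65 and an intestinal level of 8.33. The difference between liver and spleen was not called (0.33 ± 0.42, adjusted p = 0.551). Neither was that between small intestine and spleen (-1.32 ± 0.48, adjusted p = 0.13), where the spleen was the higher. The latter difference passed with all 8 pools fitted together (adjusted p = 0.00163), in single channels with the dye as a block (0.00441) and with normexp and loess (0.00602). The liver was 3.15-fold above the small intestine (adjusted p = 0.038), which did not pass when array 1 was left out (0.0881) or when dim probes were kept in the test (0.0616). *Got1*, a housekeeping enzyme of the malate-aspartate shuttle, gave 12.22 and 12.14 in the liver, with 11.68 in intestine and 9.58 in spleen. The difference between liver and small intestine was not called (0.49 ± 0.39, adjusted p = 0.384) except in the fit of all 8 pools (adjusted p = 0.00262) and in single channels with the dye as a block (0.0209). The liver was 6.04-fold above the spleen (adjusted p = 0.00681), and the small intestine 4.29-fold (adjusted p = 0.035), the latter not called without array 1 (0.0776) or with dim probes kept (0.0611).

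*Slc2a2* and *Ppargc1a* differed from the gluconeogenic enzymes. The *Slc2a2* probe A_44_P226612 had an intestinal level of 11.59 and liver levels of 10.78 and 10.59, while probe A_44_P488355 gave an intestinal level of 7.56 and liver levels of 8.37 and 8.10. The probes therefore differed in sign between these tissues (-0.90 ± 0.40 and 0.68 ± 0.40 for liver minus small intestine), and neither difference was called (adjusted p = 0.149 and 0.258). With all 8 RNA pools fitted together both passed, in their opposite directions (adjusted p = 0.00329 and 0.00984), and the first probe also passed with the dye as a block (0.00715) and with normexp and loess (0.0109). Both probes were dim in the spleen, by at least 88.9-fold and at least 16.3-fold below the liver. The pancreas markers noted above were high in the same intestinal pools, and their part in the intestinal *Slc2a2* level was not tested. *Ppargc1a* was above background in the small intestine only, at 6.49, at least 2.76-fold above the liver and at least 4.87-fold above the spleen. It entered the test through the small intestine alone, and the test used its dim liver and spleen signals rather than these bounds. Its calls as higher there therefore add no independent support. Neither of these calls held without array 1. The control liver channels of *Ppargc1a* read 6.50 to 23.3 and the spleen channels 3.34 and 6.25, none of them well above background.

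The likeness of expression patterns was described by Pearson's r with the repeated *Pck1* probe over the 8 pools. Since these are 3 tissues, with control and LO pools on shared arrays, r mostly reflects the order of the tissues. Among the members, *G6pc* A_44_P384066 (0.990) and *Pc* (0.987) were nearest and *Ppargc1a* (-0.119) and *Sds* (0.475) farthest. Among 5983 other named probes above background in every liver channel, *Rtn3* (0.99960), *Cyp4a1* (0.99954), *Ptpn21* (0.99954) and *Wfdc2* (0.99935) were among the nearest.

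The second question was what LO changed. No member passed the test of LO against control in any tissue. In the limma fit over the 4 pairs of pools, 0 of 13 member probes passed an adjusted p of 0.05 in any of the 3 tissues, against a background of 0% of all probes, that is 0 of 30607 (small intestine), 30610 (spleen) and 30616 (liver). At an unadjusted p under 0.05 there were 1205, 1303 and 1781 probes, of which 0, 3 and 0 belonged to the members. After normexp background correction and loess 33, 109 and 151 probes were called, again with 0 members. The 3 spleen members counted above were *Pck1* A_44_P517258 and both *Slc2a2* probes, none of them well above background in any spleen channel. Only the liver pairs give a spread between pools, and the small intestine and the spleen, with 1 pair each, were assumed to vary like the liver. Over the 13 probes the median log2 LO/control was -0.01 for small intestine, 0 for spleen and 0.04 for liver, beside 0, -0.005 and 0 over all probes. The scanner software set the ratio of some dim features to exactly 1, and the spleen median of 0 is such a value. With these ratios taken as missing, 12 member probes could be tested in small intestine, 9 in spleen and 13 in liver.

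**Figure D2:**
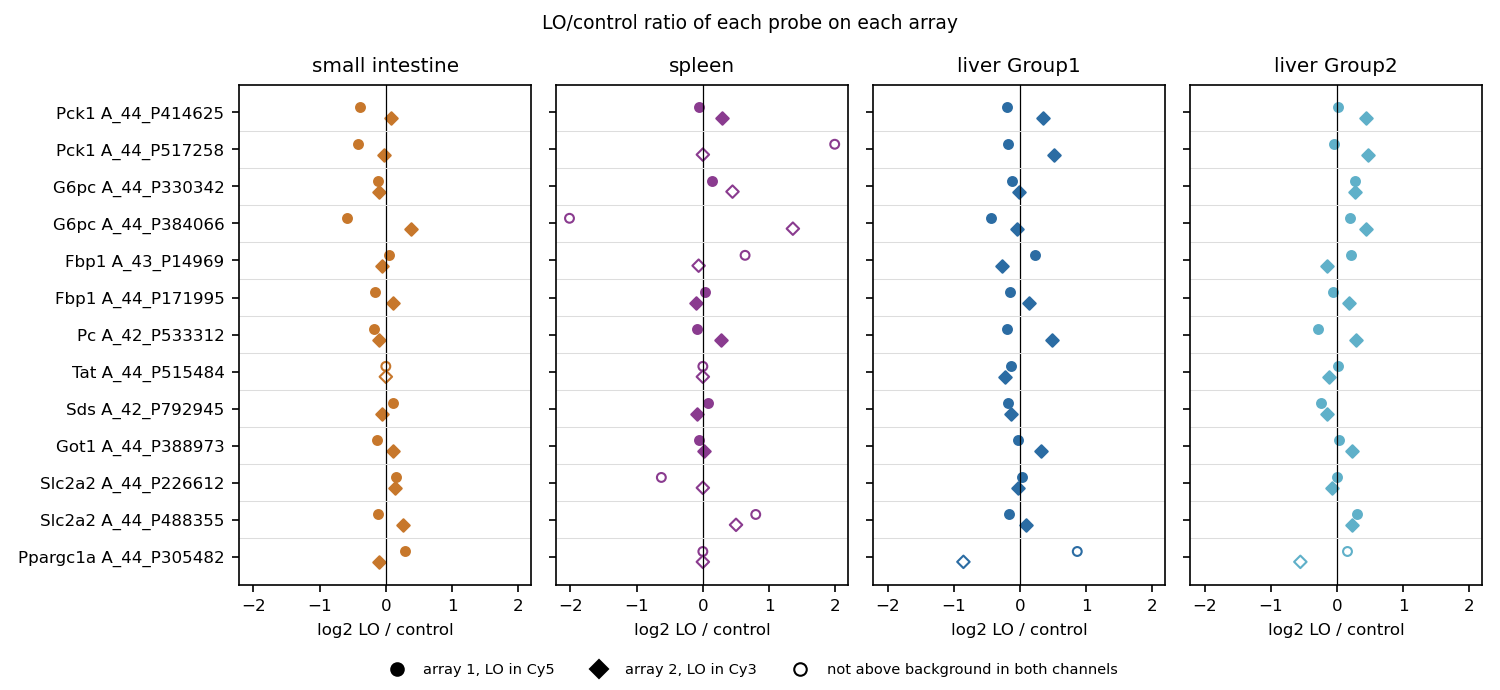
Log2 LO/control of each probe on each of the 8 arrays, with circles for LO in Cy5 and diamonds for LO in Cy3, and open symbols where a channel was not above background. Filled symbols lie between -0.59 and 0.51, and the widest values, such as 1.99 and -2.01 in the spleen, are open.

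In the liver the 2 dye orientations often gave opposite signs. *Pck1* A_44_P414625 read -0.20 and 0.35 on the Group1 arrays and 0.01 and 0.44 on the Group2 arrays. Array 2, with LO in Cy3, was the higher in both groups. The mean was 0.15 ± 0.07 SE (ratio 1.11, 95% interval 0.916 to 1.35, adjusted p = 0.84), and the second probe gave 0.19 ± 0.05 (ratio 1.14, adjusted p = 0.829). Within an array the 10 copies were tight, with an SD of 0.02 to 0.04 in the liver, so that the gap between the arrays was wider than the spread of copies. *Pc* behaved in the same way, at -0.19 and 0.48 in Group1 and -0.28 and 0.29 in Group2, with a mean of 0.07 ± 0.07.

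**Figure D3:**
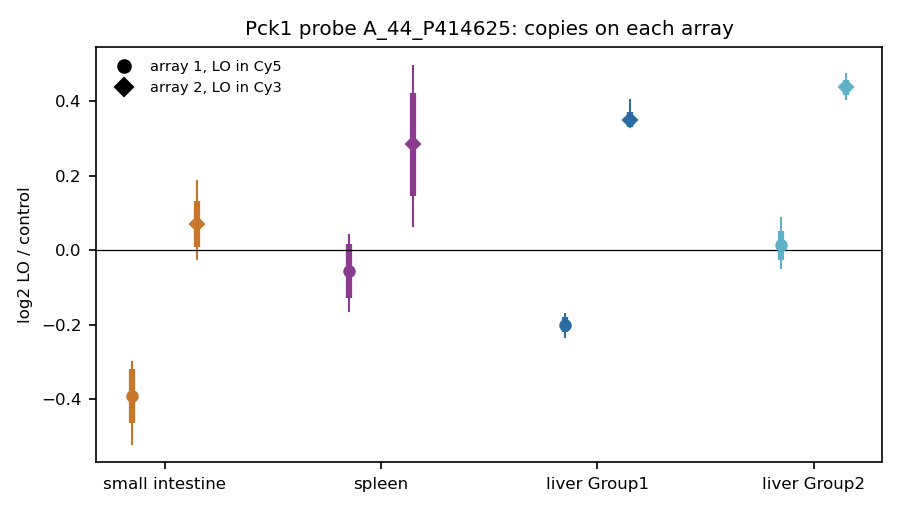
Log2 LO/control of the repeated *Pck1* probe by tissue pair, with the mean of the 9 or 10 copies used on each array (symbol), their SD (thick bar) and their range (thin line). In every pair array 2 (LO in Cy3) lies above array 1 (LO in Cy5).

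*G6pc* differed in sign between the liver pairs. Probe A_44_P330342 read -0.12 and -0.02 in Group1 and 0.28 and 0.27 in Group2, and probe A_44_P384066 read -0.44 and -0.04 in Group1 and 0.20 and 0.43 in Group2. Both probes were thus lower with LO on each Group1 array and higher on each Group2 array, and array 2 was the higher in both groups for the second probe. Their means over the 2 pairs were 0.10 ± 0.13 and 0.04 ± 0.19 (adjusted p = 0.884 and 0.987). *Sds* was the only member probe with 1 sign on all 4 liver arrays, at -0.18, -0.14, -0.24 and -0.14. Its mean fell short of the threshold (-0.18 ± 0.05, ratio 0.885, 95% interval 0.772 to 1.02, adjusted p = 0.829). *Tat* read -0.13, -0.22, 0.01 and -0.12, with a mean of -0.12 ± 0.06 (adjusted p = 0.84), and *Got1* -0.03, 0.32, 0.03 and 0.23, with a mean of 0.14 ± 0.05 (adjusted p = 0.829). *Fbp1* was near 0 on average (0.01 ± 0.05 and 0.03 ± 0.05 for its probes), although its single arrays ran from -0.27 to 0.23. The *Slc2a2* probes gave -0.02 ± 0.05 and 0.12 ± 0.11, and *Ppargc1a* was dim on all 4 arrays.

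In the small intestine 12 of 13 probes were above background in every channel. The largest mean was that of *Pck1* A_44_P517258, at -0.42 and -0.03 on the 2 arrays (-0.22 ± 0.28, SD of 2 arrays, adjusted p = 1). The repeated *Pck1* probe changed sign with the dye (-0.39 and 0.07), and its control signal was 539 on array 1 and 266 on array 2, with copies from 375 to 855 on array 1. *Slc2a2* A_44_P226612 was the one probe higher with LO on both arrays, at 0.15 and 0.14 (ratio 1.11, 95% interval 0.91 to 1.34), whereas its other probe read -0.11 and 0.26. *G6pc* A_44_P330342 (-0.12 and -0.10) and *Pc* (-0.18 and -0.11) were lower on both arrays, with adjusted p = 1 each. *Ppargc1a* read 0.29 and -0.10, *Sds* 0.11 and -0.06 and *Got1* -0.13 and 0.10, all with a sign that turned with the dye. *Tat* had a ratio set to exactly 1 by the scanner software on both arrays, as it does for dim features. Beside these values, the exocrine pancreas markers had a median of -0.21 and the endocrine ones of 0.22, and their part was not tested.

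In the spleen 5 of 13 probes were above background in every channel, and these were *Pck1* A_44_P414625, *Fbp1* A_44_P171995, *Pc*, *Sds* and *Got1*. Their mean LO/control lay between -0.04 and 0.11, with *Pck1* at -0.06 and 0.28, *Pc* at -0.09 and 0.28, *Sds* at 0.08 and -0.08, *Got1* at -0.06 and 0.02 and *Fbp1* at 0.03 and -0.11. The wide values belonged to dim probes. *Pck1* A_44_P517258 read 1.99 on array 1, from a control signal of 3.54 and an LO signal of 14.1, and exactly 0 on array 2. *G6pc* A_44_P384066 read -2.01 and 1.36. With normexp and loess their means moved from 0.996 to 0.01 and from -0.33 to 0.07.

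The study's own rule calls a feature up at Cy5/Cy3 of at least 1.5 with LO in Cy5 and at most 0.75 with LO in Cy3, and down in the opposite case. Of all features it took 0.708% for small intestine, 0.55% for spleen, 0.814% for liver Group1 and 1.25% for liver Group2. One of the members' 22 features passed it in any pair, *Slc2a2* A_44_P488355, as up in the spleen. Its signals were 4.12 for control and 7.17 for LO on array 1 and 13.4 and 19.0 on array 2, and none of the 4 channels was well above background, so no fold is given. The limma value was 0.65 ± 0.16, not called, and -0.001 with normexp and loess. The other *Slc2a2* probe read -0.63 and 0 in the spleen. None of its spleen channels was well above background either, and the 0 was set by the scanner software, so it gives no direction. With symmetric cut-offs, or with the P threshold of 0.01 that the methods state, 0 member features passed. In the same spleen pools the hepatocyte markers ran higher with LO. Their median log2 LO/control was 0.52 over 14 genes, 10 of them were higher on both arrays, and 0 were called. At an unadjusted p under 0.05 there were 9, against 1303 of all 30610 probes. The lists were chosen with earlier results of these data known, so these counts are no independent support for a rise. Their summed signal was 7390 in the control and 7810 in the LO pool, of which *Tf*, the transferrin gene, made up 6700 and 6820, with a log2 LO/control of 0.03. The other 13 summed to 692 and 993, against 1590000 and 1620000 in the control liver pools, and 9 of the 14 were above background on both control spleen arrays. *Ambp* (0.76 ± 0.08 SE) and *Fgb* (0.62 ± 0.07) had the smallest p among those with 1 sign on both arrays. Their spleen arrays lay far apart, at 0.16 and 1.36 for *Ambp* and at 0.23 and 1.02 for *Fgb*. The limma SE and p of spleen values rest on the spread of the liver pairs and do not measure this gap. *Alb* was at 0.55 on 1 of its 3 probes, and *Cps1* and *Cyp2e1* were not above background. Each list gene was read from 1 probe, also where the array held more. The part of the hepatocyte markers in the spleen values of *Slc2a2*, *G6pc* and *Pck1* was not tested.

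The LO effects of 2 tissues were compared in the same fit. In each of the 3 differences (liver minus spleen, liver minus small intestine and small intestine minus spleen) 0 of 13 member probes were called, again with a background of 0%, at 1455, 1378 and 1111 probes of unadjusted p under 0.05, of which 1, 1 and 2 were members. With normexp and loess these differences called 67, 26 and 22 probes, with 0 members. The members counted above in the differences with the spleen were *Pck1* A_44_P517258 and, for small intestine minus spleen, also *Slc2a2* A_44_P226612. Neither of these probes had a spleen channel well above background. For the repeated *Pck1* probe the liver effect exceeded the intestinal one by 0.31 ± 0.12 (95% interval -0.17 to 0.79, adjusted p = 0.993). The other *Pck1* probe, A_44_P517258, was above background in every liver and intestinal channel. It gave 0.41 ± 0.09 (95% interval 0.06 to 0.76) and was the member counted above for this difference, though it was not called. With single arrays and the dye as a block its SE was 0.58, against 0.107 for the repeated probe. That fit takes its spread from all tissues. The spleen arrays of A_44_P517258 read 1.99 and 0, with no channel well above background, so 0.58 does not measure liver and intestine alone. As the small intestine has 1 pair, a difference of 0.41 or none cannot be told apart with these pools.

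**Figure D4:**
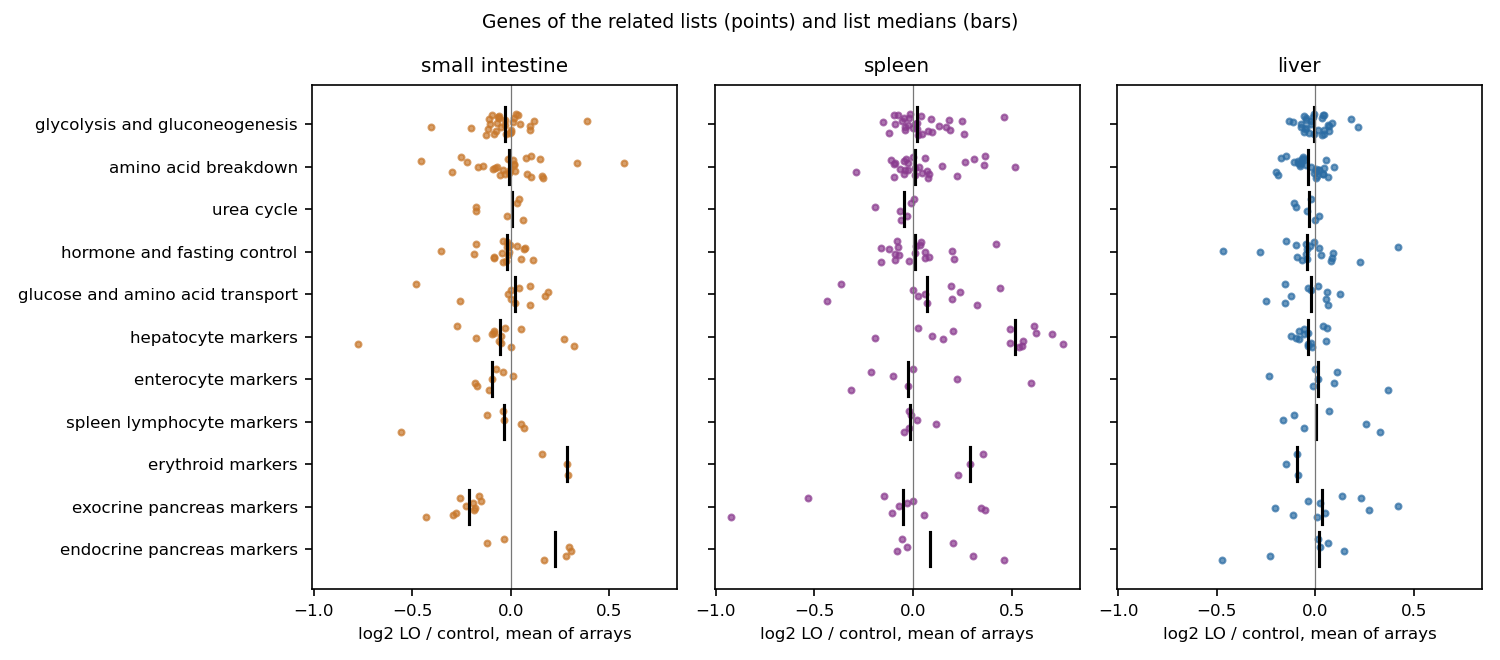
Log2 LO/control, mean of the arrays of a tissue (horizontal axis), for each gene of 11 related lists (points) with the list median (bar), in small intestine, spleen and liver. Pathway lists centre near 0 in all 3 tissues, and the hepatocyte markers in the spleen, with a median of 0.52, lie to the right.

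The other genes of the pathway were read from lists that were chosen with earlier results of these data known. In any list or tissue 0 were called, and at most 2 genes of a pathway list had an unadjusted p under 0.05 in a tissue. Values are means ± SE of the limma fit for 1 probe per gene, also where the array held more. The SE of small intestine and spleen values rests on the spread of the liver pairs. Of glycolysis and gluconeogenesis, 29 of 30 genes were on the array, with medians of -0.03, 0.02 and -0.01 in small intestine, spleen and liver. In the small intestine *Pfkfb3*, which makes the allosteric regulator that fructose bisphosphatase senses, was at 0.39 ± 0.13 (adjusted p = 1), and *Hk2*, a hexokinase, at -0.40 ± 0.22, with 1 of 2 control channels above background. In the spleen *Pklr*, the liver and red cell pyruvate kinase, was at 0.46 ± 0.14. In the liver *Pgam1* (0.03 ± 0.05) was the one gene of the list with 1 sign on all 4 arrays. Of amino acid breakdown, 28 of 37 genes were measured, with medians of -0.01, 0.01 and -0.03. *Tdo2*, of tryptophan breakdown, was at 0.37 ± 0.07 in the spleen, and *Bcat2*, the mitochondrial branched-chain aminotransferase, at -0.19 ± 0.06 in the liver, where *Hgd*, of tyrosine breakdown, was at -0.07 ± 0.05. The 6 urea cycle genes measured of 8 had medians of 0.01, -0.05 and -0.03, with *Otc* at -0.11 ± 0.05 in the liver.

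Hormone and fasting control was read in 19 of 24 genes, with medians of -0.02, 0.01 and -0.04. In the liver *Nr0b2*, the bile acid-induced repressor SHP, stood at 0.42 ± 0.07 and was higher on all 4 arrays, from 0.27 to 0.55 (adjusted p = 0.829). *Igfbp1*, an insulin-repressed gene, was lower on all 4, from -0.50 to -0.09, with a mean of -0.28 ± 0.07 (adjusted p = 0.829), and *Tsc22d3*, a glucocorticoid target, was at -0.15 ± 0.05. *Klf15* in the spleen was at -0.16 ± 0.09. The 11 transport genes had medians of 0.02, 0.07 and -0.02, with *Slc16a1*, a lactate transporter, at 0.32 ± 0.11 in the spleen and *Slc2a1* at -0.15 ± 0.05 in the liver. The other marker lists had medians of -0.10, -0.03 and 0.01 (enterocyte), -0.04, -0.01 and 0.01 (lymphocyte) and 0.29, 0.29 and -0.09 (erythroid) in small intestine, spleen and liver. *Gapdh*, used as a control gene in the study, lay between -0.07 and 0.14 on its 2 probes in the 4 pairs.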

How the data were processed

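The deposited files hold 8 two-colour arrays, in 4 dye-swap pairs. Per the file headers the authors scanned them with Feature Extraction 11.0.1.1, which gave, as deposited, a log10 ratio of Cy5 over Cy3 and background-subtracted, dye-normalized signal intensity values per channel, with a p-value of the software's error model per feature. The authors also deposited median signal intensity values before correction, and a value table that equals the log10 ratio of the processed signals within 5e-08. Array column medians of that table ran from -0.0197 to 0.0148, and its direction is Cy5 over Cy3. Array features carry accessions of an older build (rn4), and no probe sequence or position.

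The log10 ratios were turned to log2 LO/control, copies of a probe averaged, and both arrays of a pair averaged before limma 3.58.1 (R 4.3.3) fitted 1 coefficient per tissue over the 4 pairs, which leaves 1 residual degree of freedom (prior 1.2), with Benjamini-Hochberg adjustment over all probes. Probes well above background in a channel on at least 2 arrays were tested (30616, all 13 members among them). Levels came from the processed signals, Aquantile-normalized between arrays, in the 4 control pools (27388 probes). The normexp alternative (offset 50) used median signals in place of the mean signals first planned. RefSeq symbols were matched for 10759 probes with 1 symbol each. Named genes were all member probes, from each list and tissue the 2 genes in each direction with the smallest p and 1 sign on every array, of which part is printed, the 5 genes most like *Pck1*, and *Gapdh*, some of which are not reported here; *Alb*, *Cps1*, *Cyp2e1* and *Tf* were added after their values were seen. The members and lists were chosen with earlier results of these data known. Settings changed in turn are given with their effect in the closing section, and the fits were tested on simulated data. The replicate number is the dye orientation. Same-numbered arrays deviated together over all pairs (r from 0.554 to 0.805), and this is a dye term, which averaging of the pair removes.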

Additional observations from a re-analysis of the deposited data

Results flagged for a closer look

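The *G6pc* probe A_44_P330342 went opposite ways in small intestine and spleen. It was lower with LO on both intestinal arrays (-0.12 and -0.10) and higher on both spleen arrays (0.14 and 0.45), a difference of -0.408 on the log2 scale. In the limma fit this difference had an SE of 0.25 and an adjusted p of 1. On spleen array 2 neither channel was above background, and the second *G6pc* probe differed in sign between its arrays in both tissues. With normexp and loess the spleen value was -0.01.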

How the results depend on the processing

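The LO comparisons called 0 member probes under each alternative run. Over all probes the counts of 0 moved with 2 kinds of setting. Single arrays in place of averaged pairs called 1 probe in the small intestine, without as with the replicate block for dye orientation. The block moved no value of a member, for example 0.151 for *Pck1* A_44_P414625 in the liver. With both dye orientations equally often in each tissue, these values could not move, so this is no check of them. Normexp and loess called 33 probes for small intestine, 109 for spleen and 151 for liver, and the cause was not tested. The fold rule took 0 member features with symmetric cut-offs and 0 with the P threshold, against 1 without. Of 39 member values of LO, 12 and 14 changed sign, left 0 or reached 0 without array 1 and array 2, and 11 with normexp and loess. Leaving out liver Group2 did so for 7, all among the 13 liver values, and leaving out Group1 for 0. Single arrays also called 1 probe in the difference of liver minus small intestine.

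For tissue levels, 75th percentile scaling gave 6566 probes higher and 6131 lower in liver than spleen, against 4590 and 6464, and the median of all probes moved from -0.21 to 0.04. No member called in the main fit changed direction under any of the 7 alternatives, but sizes moved. By more than 1.5-fold moved 21 of 39 with normexp, loess and Aquantile, 13 with 75th percentile scaling (up to 1.14 on the log2 scale) and 3 without either array (up to 0.81). Those 3 were *Slc2a2* A_44_P488355 against spleen, at 4.51 and 5.93 for liver and 3.74 and 5.35 for small intestine without array 1 and array 2, and *Ppargc1a* in liver minus small intestine, at -2.61 and -3.79. With dim probes kept, 3 member calls were lost (*Sds*, *Pck1* A_44_P414625 and *Got1*). Without array 1, 5 member calls were lost, in *Sds*, *Ppargc1a*, *Pck1* A_44_P414625 and *Got1*, the *Ppargc1a* probe in 2 comparisons. The counts called in liver against spleen, liver against small intestine and small intestine against spleen rose from 11054, 7893 and 4816 to 20148, 18688 and 15926 with all 8 pools, and to 18175, 16095 and 13005 in single channels with the replicate block. Without array 1 the last 2 fell to 5195 and 2710, and normexp raised the last to 8266. Dim signal limits the member values most in the spleen, where 5 of 13 probes were above background in every channel.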
